A study of Mus musculus with 6 samples.

Results

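The genes that encode the receptors for acetylcholine, serotonin, noradrenaline and dopamine were followed in the hippocampus of 5xFAD and WT mice. Members were taken by a rule on the gene name alone, which was set with earlier results of these data known. The rule took every gene of the count table whose symbol begins with Chrm and a digit from 1 to 5, Chrna or Chrnb and a digit, Htr and a digit from 1 to 7, Adra1, Adra2, Adrb and a digit, or Drd1 to Drd5. This gave 46 of the 17385 protein-coding genes in the table, namely 5 muscarinic and 13 nicotinic acetylcholine receptor genes, 14 serotonin receptor genes, 9 noradrenaline receptor genes and 5 dopamine receptor genes. A total of 32 members had enough counts to be tested and 14 did not.

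RNA-seq was performed on the hippocampus of 3 5xFAD and 3 WT samples, 1 library each, all from mice aged 3 months. The 5xFAD mice carried mutant human transgenes, among them APP with the Swedish, Florida and London mutations, under the neuronal Thy1 promoter and on a C57BL/6J background, so that the transgenes were active mainly in neurons. WT mice carried no transgene. The question was which mRNAs differed at this early stage of the amyloid model, and for these genes whether any receptor system stood apart. In bulk tissue, fewer cells of a type and less RNA per cell cannot be told apart.

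Most of these receptors are G protein-coupled. The Gq-coupled members (Chrm1, Chrm3, Chrm5, the Htr2 and Adra1 genes) act through phospholipase C, the Gi-coupled members (Chrm2, Chrm4, the Htr1 and Adra2 genes, Htr5a, Drd2, Drd3, Drd4) lower cyclic AMP, and the Gs-coupled members (Htr4, Htr6, Htr7, the Adrb genes, Drd1 and Drd5) raise it. The nicotinic subunits and the Htr3 subunits instead form ligand-gated cation channels of several subunits each. The hippocampus receives its acetylcholine from the medial septum, its serotonin from the raphe nuclei and its noradrenaline from the locus coeruleus, so the cell bodies that make these transmitters lie outside the dissected tissue while the receptors lie largely within it.

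No receptor gene passed the threshold, which was an adjusted p under 0.05 in edgeR's quasi-likelihood test with Benjamini-Hochberg adjustment over all 13937 genes tested. In the same test 106 of all genes passed, or 0.761%, of which 13 (0.0933%) were lower and 93 (0.667%) higher in 5xFAD. The smallest adjusted p of a member was 0.131, for Adra1b. At an unadjusted p under 0.05 there were 9 of the 32 tested members (28.1%), 7 lower and 2 higher, beside 18.9% of all genes tested (9.03% lower and 9.87% higher). DESeq2 and edgeR's exact test each called 1 member, Adra1b, with an adjusted p of 0.0173 and 0.00726, and limma-voom called 0. Over all genes these tests called 492, 572 and 102 genes, in that order.

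The members leaned toward lower values in 5xFAD. The log2 fold change of 5xFAD over WT was below 0 for 25 of the 32 tested members (78.1%) and for 50.9% of all genes tested, and the median over members was -0.26 where that over all genes was -0.01. Without WT replicate 2 the median over members was -0.15, and without 5xFAD replicate 3 there were 19 of 32 members below 0. The 3 5xFAD libraries lay entirely below the 3 WT libraries for 8 members and entirely above for 3, together 34.4% of those tested, beside 15.1% lower and 13.2% higher (28.3%) of all genes. In CPM, the count of a gene per 1000000 counts of its library after scaling by the trimmed mean of M values, the 46 members summed to 794.6, 824.1 and 803.5 in WT replicates 1 to 3 and to 732.4, 711.8 and 748.2 in 5xFAD replicates 1 to 3. These sums did not overlap, and the muscarinic genes made up the largest part of each.

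**Figure D1:**
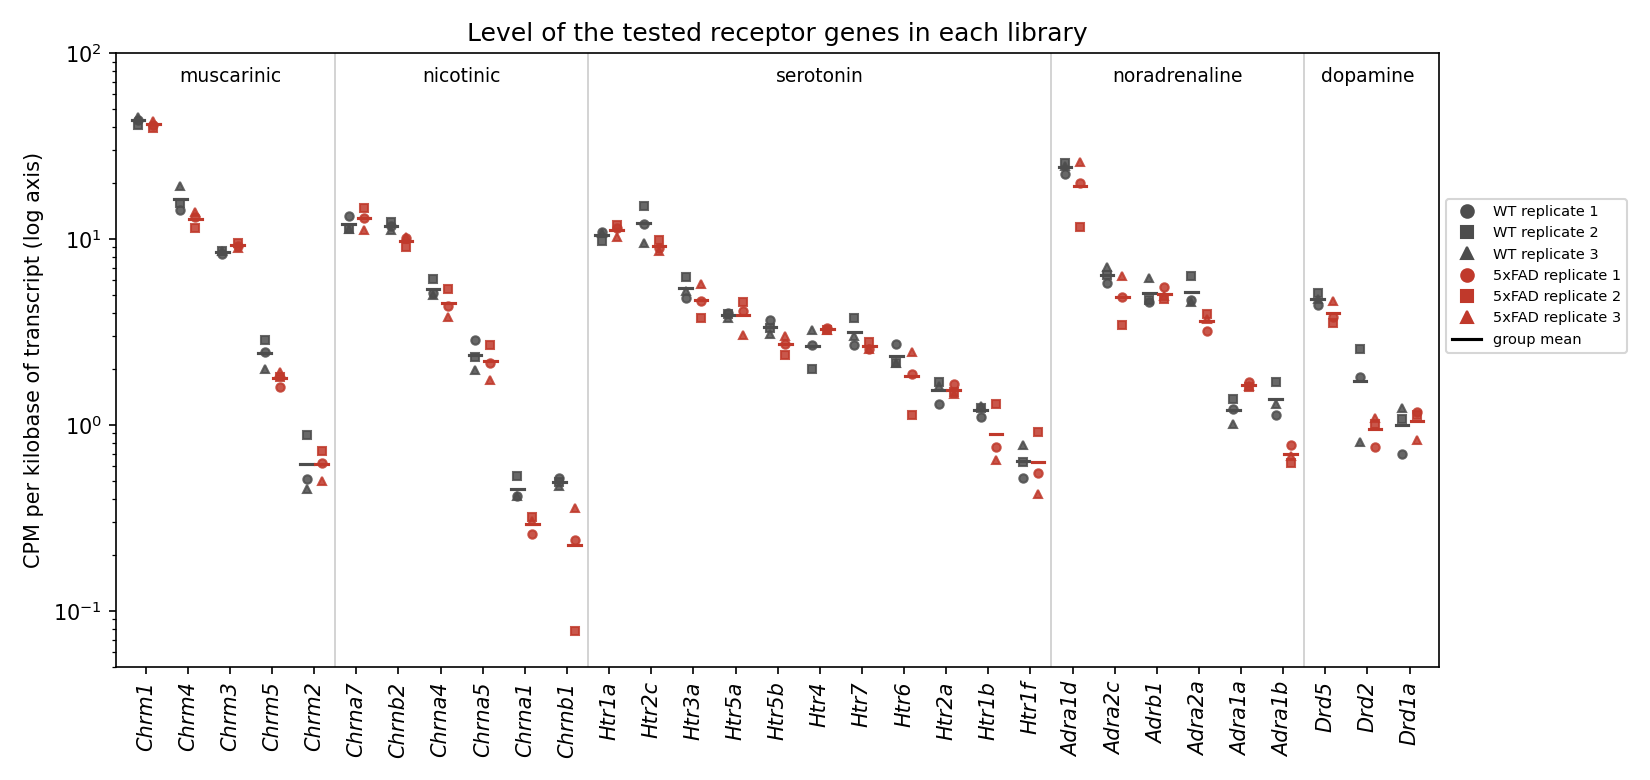
Level of the tested receptor genes, in CPM per kilobase of the longest transcript on a log axis, with grey symbols for the WT and red symbols for the 5xFAD libraries, 1 symbol shape per replicate number and a bar at each group mean. Chrm1 (mean 43.4 in WT) and Adra1d (24.2 in WT) stood highest, and the Chrnb1 point of 5xFAD replicate 2, made of 3 counts, stood lowest.

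The 5xFAD libraries differed among themselves in a way that touched these genes. Across all genes, the deviation of a library from the WT mean ran against the GC content of the transcript in 5xFAD replicates 1 and 2 (Spearman rho -0.55 and -0.68) and hardly in 5xFAD replicate 3 (-0.08) or the WT libraries (-0.06 to 0.07). Over the 32 tested members rho was -0.35, -0.65 and 0.19 in the 5xFAD libraries. The 16 most GC-rich members (51.72% to 65.49% GC) had a median log2 deviation of -0.32, -0.47 and -0.13 in 5xFAD replicates 1 to 3, whereas the 16 most GC-poor (39.4% to 50.9%) had 0.05, 0.18 and -0.29. These correlations are across genes that share the same libraries and are given as a description. Each fold change below was also computed with a term for GC content and transcript length fitted in each library (the GC-length term). The summed CPM levels, above and below, were taken without this term. Whether they overlap between the groups can differ with it, and such sums were not computed.

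With the GC-length term again 0 members passed, beside 1.17% of all genes tested, and 8 had an unadjusted p under 0.05, beside 18.4%. The 3 5xFAD libraries then lay below all WT libraries for 9 members and above them for 3, where 14.9% and 10.8% of all genes did so. The log2 fold change was then below 0 for 22 of 32 members (68.8%) and for 55% of all genes, and the medians were -0.16 over members and -0.03 over all genes. Set alone against WT, 5xFAD replicate 3 had 24 of the same 32 members below 0, with a median of -0.19. Further members of low count were kept only in this fit. They could pass the low-count filter through a single high WT library, which favours values below 0. With them, 29 of the 38 members tested there were below 0, with a median of -0.27, where 50.6% of all genes in that fit were below 0. Of these 38 members 0 passed, beside 0.853% of all genes, and 6 had an unadjusted p under 0.05, beside 12.1%. 5xFAD replicate 3 lay within the WT range for 12 of the 32 tested members, beside 40% of all genes. The part that GC content had in the lean of the members was not tested further than this.

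**Figure D2:**
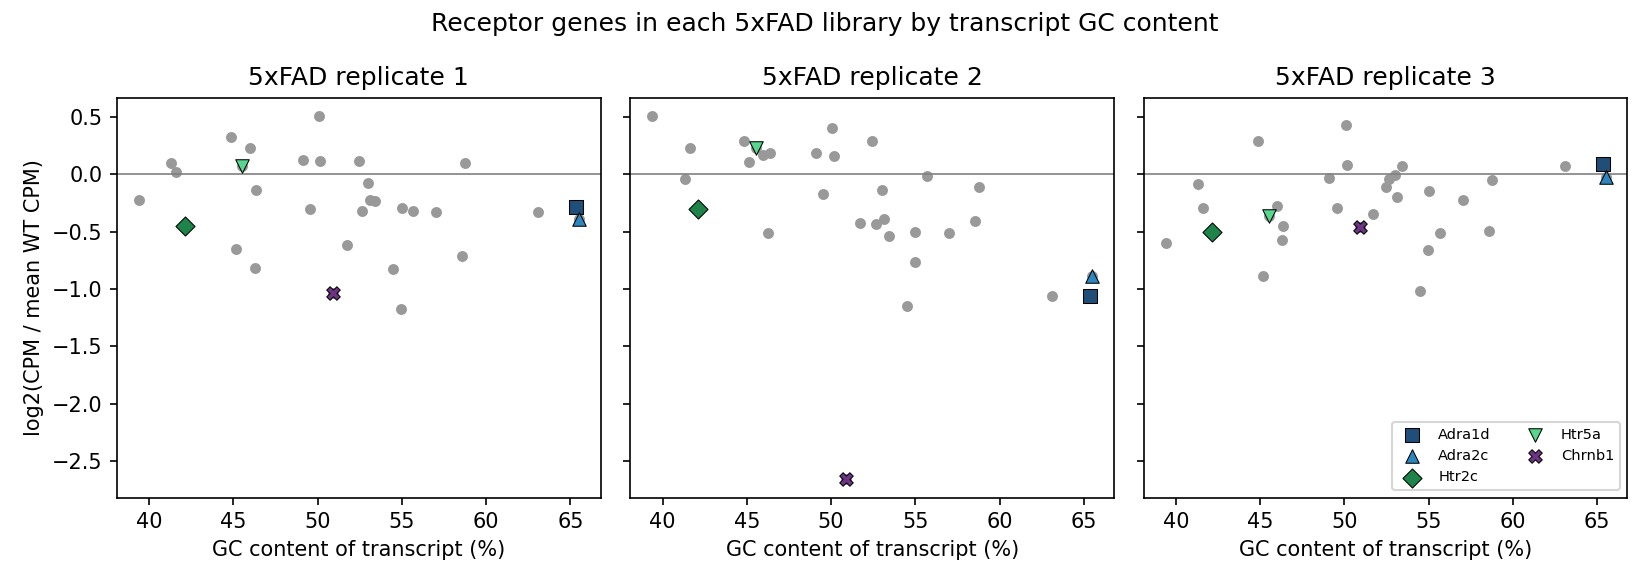
Deviation of tested members from the WT mean, as log2 of CPM over mean WT CPM, against the GC content of the longest transcript in percent, with 1 panel per 5xFAD library, grey points for the other members and coloured symbols for 5 named genes. Adra1d and Adra2c, at the GC-rich end, lay far below 0 in 5xFAD replicate 2 and near 0 in replicate 3, while Chrnb1 and Htr2c lay below 0 in all 3 panels.

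The span of base composition among these receptors can be read from their coding sequences. Shown are the first 120 coding bases (GENCODE M21, mm10, 5′ to 3′ on the strand of the gene) of the 2 most GC-poor and the 2 most GC-rich transcripts among the 14 members that exceeded 10 CPM in every library, with G and C in capitals. Htr2c lies on chromosome X (146962513 to 147197277, plus strand), Htr5a on chromosome 5 (27842149 to 27855088, plus strand), Adra1d on chromosome 2 (131545850 to 131562283, minus strand) and Adra2c on chromosome 5 (35278319 to 35281763, plus strand). 
Htr2c: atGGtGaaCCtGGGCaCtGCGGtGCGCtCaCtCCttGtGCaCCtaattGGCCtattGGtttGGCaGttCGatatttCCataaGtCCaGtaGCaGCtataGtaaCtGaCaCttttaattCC
Htr5a: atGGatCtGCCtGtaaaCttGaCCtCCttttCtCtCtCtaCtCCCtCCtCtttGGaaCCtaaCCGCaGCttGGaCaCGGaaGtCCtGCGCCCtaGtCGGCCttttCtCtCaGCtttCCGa
Adra1d: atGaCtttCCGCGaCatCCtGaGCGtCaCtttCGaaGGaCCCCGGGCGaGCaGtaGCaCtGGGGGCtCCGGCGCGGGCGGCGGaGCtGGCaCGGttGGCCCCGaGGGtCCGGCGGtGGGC
Adra2c: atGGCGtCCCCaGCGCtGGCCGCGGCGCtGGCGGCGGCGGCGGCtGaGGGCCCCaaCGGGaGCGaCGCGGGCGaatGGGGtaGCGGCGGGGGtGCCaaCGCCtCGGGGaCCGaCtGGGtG
G and C filled 46.7% of the Htr2c window, 52.5% of the Htr5a window, 71.7% of the Adra1d window and 79.2% of the Adra2c window. Over the whole coding sequence the shares were 45.9%, 55.6%, 64.7% and 65.8%. G and C thus made up 95 of the 120 bases shown for Adra2c and 56 of those shown for Htr2c.

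The values of these 4 genes followed that order in part. Adra1d had 42.6, 48.4 and 47.0 CPM in WT replicates 1 to 3 and 37.9, 22.1 and 49.2 CPM in 5xFAD replicates 1 to 3. Adra2c had 19.9, 21.9 and 24.4 CPM in WT and 16.9, 11.9 and 21.8 CPM in 5xFAD. Both were lowest in 5xFAD replicate 2 and within or above the WT range in 5xFAD replicate 3. Htr5a, with 21.4, 21.3 and 20.3 CPM in WT and 22.0, 24.7 and 16.3 CPM in 5xFAD, had the opposite order of the 5xFAD libraries. Htr2c lay below the WT range in 5xFAD replicates 1 and 3 and is described with the serotonin receptors.

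Among the muscarinic receptors, Chrm1, the main postsynaptic muscarinic receptor of pyramidal neurons, was the most abundant receptor gene of all per length. Its level was 43.4 ± 2.16 CPM per kilobase in WT (SD, n = 3) and 41.3 ± 1.89 in 5xFAD (SD, n = 3). Chrm4 followed in WT at 16.4 ± 2.54, then Chrm3 at 8.5 ± 0.163, Chrm5 at 2.45 ± 0.435 and Chrm2 at 0.614 ± 0.234 CPM per kilobase. No WT library of one of these genes reached into the range of its neighbour in this order. The 5 genes summed to 338.7, 327.1 and 354.7 CPM in WT and 323.2, 312.3 and 336.3 CPM in 5xFAD, ranges that overlapped.

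Chrm1, on chromosome 19 (8663789 to 8683587, plus strand), had 275, 258 and 284 CPM in WT replicates 1 to 3 and 258, 248 and 271 CPM in 5xFAD replicates 1 to 3, and the groups overlapped. Its log2 fold change was -0.07 ± 0.08 (SE; 95% interval -0.25 to 0.11; edgeR quasi-likelihood adjusted p = 0.578), so that the interval leaves out a change as large as that fitted for Adra1b. With the GC-length term it was 0.03, and with 5xFAD replicate 3 alone 0.01.

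Chrm4, a Gi-coupled receptor gene on chromosome 2 (91927249 to 91928688, plus strand), was the 1 muscarinic gene with an unadjusted p under 0.05. It had 20.6, 22.6 and 27.7 CPM in WT and 18.8, 16.6 and 20.2 CPM in 5xFAD, and each 5xFAD library lay below each WT library by a narrow margin. The fitted log2 fold change was -0.35 ± 0.14 (SE) with an adjusted p of 0.255. It was -0.15 with the GC-length term, where the groups overlapped, -0.21 with 5xFAD replicate 3 alone and -0.22 without WT replicate 3.

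Chrm5, a Gq-coupled receptor of low abundance here, had 3.96, 4.59 and 3.20 CPM in WT and 2.55, 2.91 and 3.09 CPM in 5xFAD. The groups did not overlap, and the log2 fold change of -0.46 ± 0.21 (SE) had an edgeR adjusted p of 0.277 and was -0.45 with the GC-length term. Chrm3, the other Gq-coupled receptor, was the muscarinic gene that was higher in every 5xFAD library, at 38.9 to 41.3 CPM where WT held 36.1 to 37.4 CPM. That difference was small, at a log2 fold change of 0.12 ± 0.08 (SE) with an adjusted p of 0.388. Chrm2, the Gi-coupled autoreceptor of cholinergic terminals, ranged from 2.56 to 5.00 CPM in WT and from 2.84 to 4.09 CPM in 5xFAD, with a log2 fold change of 0.00 ± 0.30 (SE).

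Of the 13 nicotinic subunit genes 6 were tested. Per length, Chrna7 (12 ± 1.10 CPM per kilobase in WT, SD, n = 3) and Chrnb2 (11.8 ± 0.597) stood at the same level within their spread, and Chrna4 (5.41 ± 0.606) and Chrna5 (2.38 ± 0.450) below them. Chrna7 forms homomeric receptors with high calcium permeability, and Chrna4 and Chrnb2 together form the main heteromeric receptor of brain, to which Chrna5 can be added as an accessory subunit. Chrna1 and Chrnb1, subunits of the muscle receptor, were near 0.45 and 0.49 CPM per kilobase in WT. The 13 genes summed to 137.6, 141.9 and 127.4 CPM in WT and 119.3, 122.3 and 113.9 CPM in 5xFAD, without overlap. These sums were taken without the GC-length term, and their separation need not hold with it. With it Chrna4 and Chrna7 reached 30.0 and 32.3 CPM in 5xFAD replicate 2, above every WT library, while Chrnb2 stayed lower in every 5xFAD library.

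Chrnb2, on chromosome 3 (89746195 to 89764632, minus strand), had 74.8, 79.3 and 71.7 CPM in WT replicates 1 to 3 and 64.7, 57.6 and 65.8 CPM in 5xFAD replicates 1 to 3. The groups did not overlap, with a gap between 65.8 and 71.7 CPM. This gave a log2 fold change of -0.26 ± 0.09 (SE, 95% interval -0.47 to -0.06) with an adjusted p of 0.227, and -0.16 with the GC-length term. With that term the gap was narrower, between 67.1 CPM in 5xFAD and 69.2 CPM in WT. Exons of Chrnb2 overlap those of Adar on the opposite strand over 1365 bases, and since the strand setting of the counting is not known, reads from that stretch could belong to either gene.

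Chrna7 had 27.5, 23.5 and 23.6 CPM in WT and 27.0, 30.4 and 23.1 CPM in 5xFAD, and the groups overlapped. For this gene the log2 fold change of 0.11 ± 0.13 (SE, 95% interval -0.19 to 0.41) with an adjusted p of 0.619 turned to -0.09 with 5xFAD replicate 3 alone. Chrna4, the partner of Chrnb2, ranged from 22.9 to 27.9 CPM in WT and from 17.4 to 24.5 CPM in 5xFAD, with a log2 fold change of -0.27 ± 0.15 (SE) and an adjusted p of 0.330. That fold change was -0.05 with the GC-length term, -0.41 without 5xFAD replicate 2 and -0.49 with 5xFAD replicate 3 alone. Chrna5 ranged from 4.80 to 6.98 CPM in WT and from 4.27 to 6.61 CPM in 5xFAD.

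The remaining nicotinic genes with an unadjusted p under 0.05 had low counts. Chrna1 gave 41, 50 and 40 counts in WT and 24, 25 and 33 counts in 5xFAD, or 1.82, 2.32 and 1.83 CPM against 1.13, 1.40 and 1.34 CPM. On the log2 scale its fold change was -0.62 ± 0.25 (SE) with an adjusted p of 0.253, and -0.75 with the GC-length term. Chrnb1 gave 25, 23 and 22 counts in WT and 11, 3 and 19 counts in 5xFAD, and its log2 fold change of -1.07 ± 0.46 (SE) with an adjusted p of 0.263 became -0.70 without 5xFAD replicate 2. Both genes were lower in each 5xFAD library, at counts low enough, for Chrnb1 above all, that a few reads move the value.

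The serotonin receptor genes summed to 187.9, 201.2 and 178.7 CPM in WT and 173.8, 182.3 and 163.3 CPM in 5xFAD, ranges that overlapped. These sums, too, were taken without the GC-length term, and their overlap need not hold with it. With it Htr2c had 63.9, 80.2 and 49.8 CPM in WT and 40.9, 37.7 and 45.2 CPM in 5xFAD. Then 4 of the 11 tested genes had groups without overlap, all lower, beside 14.9% of all genes lower. Per length Htr2c (12.2 ± 2.73 CPM per kilobase in WT, SD, n = 3) and Htr1a (10.5 ± 0.594) led and overlapped each other, followed by Htr3a (5.42 ± 0.725), Htr5a (3.91 ± 0.115), Htr5b (3.35 ± 0.283) and Htr7 (3.16 ± 0.546). In 5xFAD the order of the leading pair was turned, at 9.14 ± 0.681 for Htr2c and 11.2 ± 0.860 for Htr1a, and there the libraries of both did not overlap. Of the 11 tested genes 9 had a log2 fold change below 0 and 1, Htr2c, had an unadjusted p under 0.05.

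Htr2c, a Gq-coupled receptor known for editing of its mRNA, had 59.0, 73.3 and 46.6 CPM in WT replicates 1 to 3 and 43.6, 48.4 and 42 CPM in 5xFAD replicates 1 to 3. The WT libraries were widely spread, and 5xFAD replicate 2 lay above WT replicate 3. Across the groups the log2 fold change was -0.42 ± 0.16 (SE, 95% interval -0.79 to -0.05) with an adjusted p of 0.244. It lay further from 0 with the GC-length term, at -0.65 (adjusted p of 0.119), and nearer to 0 without WT replicate 2, at -0.24.

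Htr1a, on chromosome 13 (105443639 to 105448122, plus strand), encodes the Gi-coupled receptor that is dense on hippocampal pyramidal neurons. It had 48.8, 43.9 and 48.2 CPM in WT and 51.3, 53.4 and 45.9 CPM in 5xFAD. The groups overlapped, and the log2 fold change was 0.09 ± 0.09 (SE, 95% interval -0.12 to 0.31) with an adjusted p of 0.542, or -0.02 with 5xFAD replicate 3 alone. Htr5b, a receptor whose human counterpart is a pseudogene, had 7.07, 6.39 and 5.98 CPM in WT and 5.29, 4.59 and 5.85 CPM in 5xFAD. Its groups did not overlap, by a gap of less than the spread within either group. Without the GC-length term this held for no other tested serotonin receptor gene, and with it for Htr1b, Htr2c and Htr7 as well. Its log2 fold change was -0.30 ± 0.16 (SE) with an adjusted p of 0.317, -0.18 with the GC-length term and -0.13 with 5xFAD replicate 3 alone.

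Among the Gs-coupled serotonin receptors, Htr4 was the tested serotonin gene with the most positive fold change. It had 12.5, 9.31 and 15.2 CPM in WT and 15.5, 15.1 and 15.1 CPM in 5xFAD, so that the 5xFAD libraries were nearly equal and met WT replicate 3. For this gene the log2 fold change of 0.30 ± 0.17 (SE) with an adjusted p of 0.338 was 0.14 without WT replicate 2. Htr6 ranged from 5.03 to 6.40 CPM in WT and from 2.63 to 5.77 CPM in 5xFAD, and its log2 fold change of -0.35 ± 0.28 (SE) was -0.02 with the GC-length term. Htr7 ranged from 8.32 to 11.6 CPM in WT and from 7.88 to 8.62 CPM in 5xFAD, with a log2 fold change of -0.26 ± 0.16 (SE) and an adjusted p of 0.354.

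The other serotonin genes overlapped between the groups without the GC-length term. The channel subunit Htr3a, a marker of a class of interneurons, ranged from 9.96 to 12.9 CPM in WT and from 7.78 to 11.9 CPM in 5xFAD. The Gi-coupled Htr1b had 5.2, 5.79 and 5.94 CPM in WT and 3.59, 6.10 and 3.05 CPM in 5xFAD, with 5xFAD replicate 2 alone above WT. On the log2 scale its fold change was -0.42 ± 0.27 (SE) with an adjusted p of 0.363, and -0.76 without 5xFAD replicate 2, -0.23 without 5xFAD replicate 3 and -0.87 with 5xFAD replicate 3 alone. With the GC-length term it was -0.61, and all 5xFAD libraries then lay below WT. Exons of Htr1b overlap a non-coding gene on the opposite strand. Htr2a, the Gq-coupled receptor of serotonergic hallucinogens, ranged from 7.29 to 9.50 CPM in WT and from 8.17 to 9.25 CPM in 5xFAD, and the Gi-coupled Htr1f from 1.33 to 2.01 CPM and from 1.10 to 2.35 CPM.

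The noradrenaline receptor genes held the members with the smallest p, with fold changes in both directions. Of 7 tested, 4 had an unadjusted p under 0.05 and groups that did not overlap, and their edgeR adjusted p lay between 0.131 and 0.236, so none passed. Of all genes 18.9% had such a p and 28.3% had groups without overlap. With the GC-length term 3 of the 7 had an unadjusted p under 0.05, and 2 of the 7 were below 0 where 5 had been without it. Among them, Adra1b and Adra2a were lower and Adra1a was higher in each 5xFAD library. The 9 genes summed to 109.4, 127.4 and 121.2 CPM in WT and 98.0, 77.2 and 114.4 CPM in 5xFAD, which overlapped through 5xFAD replicate 3.

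Adra1b, a Gq-coupled receptor on chromosome 11 (43774606 to 43901210, minus strand), had 3.78, 5.65 and 4.34 CPM in WT replicates 1 to 3 and 2.60, 2.07 and 2.28 CPM in 5xFAD replicates 1 to 3. The highest 5xFAD library stood well below the lowest WT library, and the 5xFAD libraries were close together. The log2 fold change was -0.98 ± 0.22 (SE, 95% interval -1.5 to -0.46) with an adjusted p of 0.131 and -0.84 with the GC-length term. Without 5xFAD replicate 3 the edgeR adjusted p was 0.0365, in a fit where 3229 genes passed.

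Adra1a, on chromosome 14 (66635251 to 66771168, plus strand), encodes the related Gq-coupled alpha-1A receptor and differed in the opposite direction. It had 5.2, 5.89 and 4.34 CPM in WT and 7.32, 6.83 and 6.95 CPM in 5xFAD, with every 5xFAD library above every WT library. The fitted log2 fold change was 0.45 ± 0.16 (SE, 95% interval 0.07 to 0.83) with an adjusted p of 0.236 and 0.44 with the GC-length term. Per length, Adra1a and Adra1b were alike in WT, at 1.20 ± 0.181 and 1.38 ± 0.289 CPM per kilobase (SD, n = 3), and apart in 5xFAD, at 1.64 ± 0.0593 and 0.695 ± 0.0794.

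Adra1d, the most abundant noradrenaline receptor gene per length (24.2 ± 1.58 CPM per kilobase in WT and 19.2 ± 7.17 in 5xFAD), showed neither pattern. Its per-library values, given above with its sequence, put 5xFAD replicate 3 above all WT libraries and replicate 2 far below them. The log2 fold change of -0.33 ± 0.25 (SE) with an adjusted p of 0.427 was 0.04 with the GC-length term and 0.11 with 5xFAD replicate 3 alone.

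Adra2a, on chromosome 19 (54044151 to 54048982, plus strand), encodes the Gi-coupled autoreceptor of noradrenergic neurons that is also made by their target cells. It had 22.8, 30.7 and 22.1 CPM in WT and 15.4, 19 and 17.9 CPM in 5xFAD. All 5xFAD libraries lay below the WT range. This gave a log2 fold change of -0.53 ± 0.16 (SE, 95% interval -0.89 to -0.17) with an adjusted p of 0.200, but -0.22 with the GC-length term, where 5xFAD replicate 2 reached 25.6 CPM and the groups overlapped. Adra2c, its relative, had a log2 fold change of -0.38 ± 0.21 (SE) with an adjusted p of 0.318, which was 0.04 with the GC-length term.

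Adrb1, which encodes a Gs-coupled beta receptor, overlapped between groups, with 13.5 to 18.1 CPM in WT and 14.0 to 16.2 CPM in 5xFAD and a log2 fold change of -0.02 ± 0.15 (SE).

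The dopamine receptor genes were the least abundant group, with summed levels of 20.9, 26.5 and 21.5 CPM in WT and 18.1, 17.7 and 20.4 CPM in 5xFAD, without overlap. Those sums, too, were taken without the GC-length term. Drd5 and Drd1a are Gs-coupled and Drd2 Gi-coupled, and Drd1a is the older symbol of Drd1. None of the 3 tested genes had an unadjusted p under 0.05, and for each of them 5xFAD replicate 3 lay within the WT range. Per length Drd5 (4.75 ± 0.364 CPM per kilobase in WT, SD, n = 3) stood above Drd2 (1.72 ± 0.873) and Drd1a (1.00 ± 0.278), and the last of these overlapped.

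Drd5 had 13.8, 16.1 and 15 CPM in WT and 12, 11.1 and 14.5 CPM in 5xFAD, with a log2 fold change of -0.25 ± 0.14 (SE) and an adjusted p of 0.319 that was -0.03 with 5xFAD replicate 3 alone. Exons of Drd5 overlap an antisense gene over 1531 bases. Drd2, on chromosome 9 (49340627 to 49408177, plus strand), had 4.58, 6.49 and 2.06 CPM in WT replicates 1 to 3 and 1.94, 2.58 and 2.76 CPM in 5xFAD replicates 1 to 3. WT replicates 1 and 2 were high, and WT replicate 3 lay within the 5xFAD range. The log2 fold change of -0.85 ± 0.40 (SE, 95% interval -1.77 to 0.07) with an adjusted p of 0.278 was -0.45 without WT replicate 2 and -1.19 without WT replicate 3. Drd1a ranged from 2.49 to 4.43 CPM in WT and from 2.97 to 4.20 CPM in 5xFAD.

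**Figure D3:**
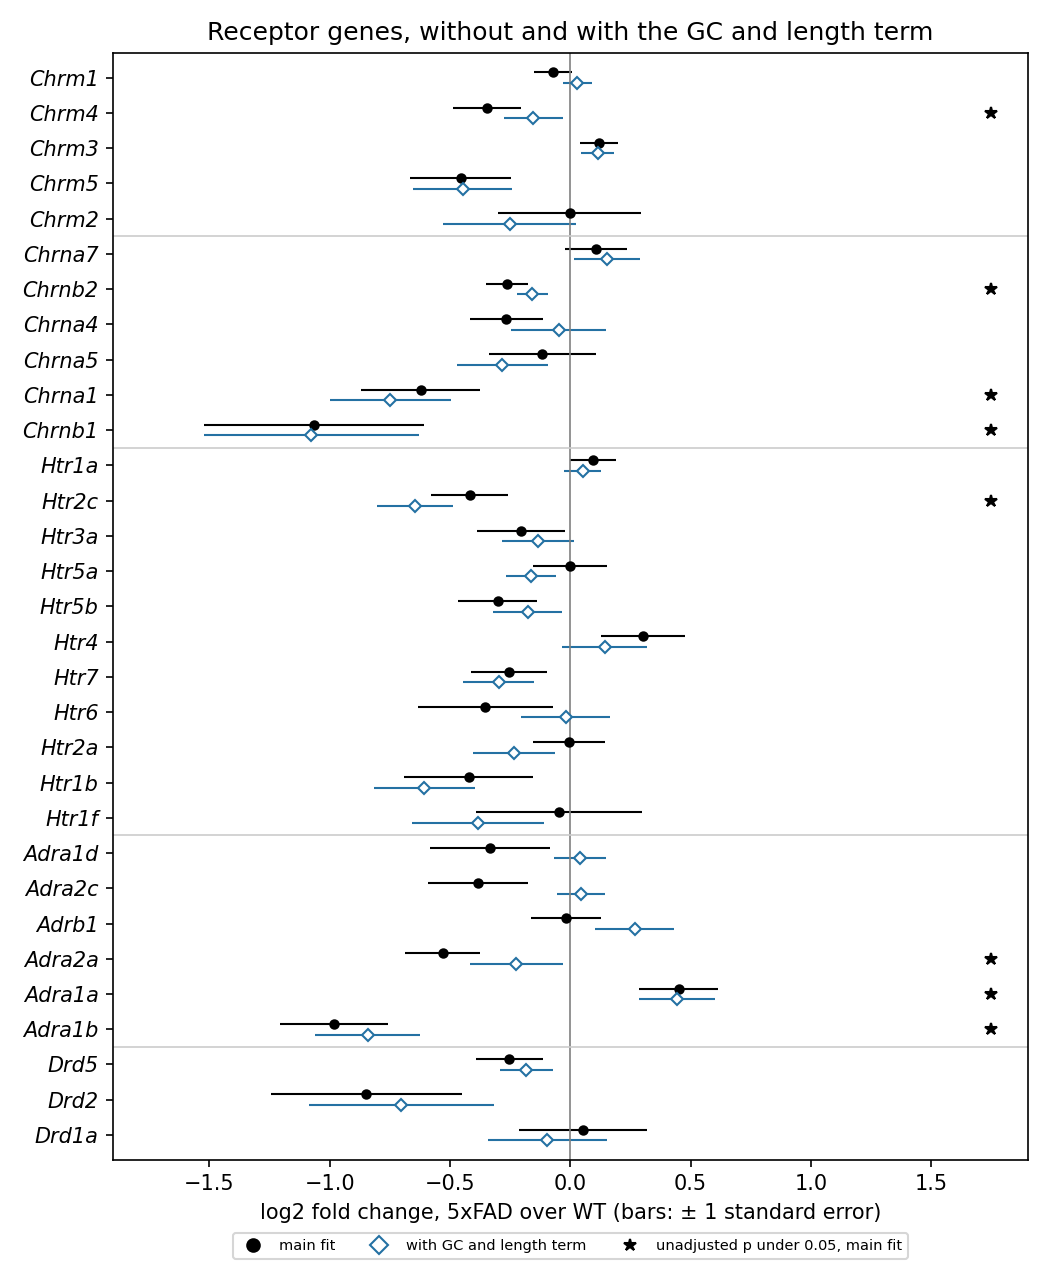
Log2 fold change of 5xFAD over WT for tested members (horizontal axis, bars of 1 standard error), as black circles without and blue diamonds with the GC-length term, ordered by transmitter and by level. A star marks an unadjusted p under 0.05 without that term, and no member passed after adjustment. The diamonds of Adra1d and Adra2c moved to 0.04, and those of Adra1b (-0.84) and Adra1a (0.44) stayed near their circles.

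The 14 members that were not tested had at most 22 counts in any library. Among them Chrna3, a subunit of ganglionic and habenular receptors, had the most, with 19, 22 and 9 counts in WT and 7, 6 and 10 counts in 5xFAD. Adra2b gave 8, 11 and 2 counts in WT and 0, 0 and 2 counts in 5xFAD. Chrnb3 was highest in 5xFAD replicate 2, at 18 counts, and Adrb3 in 5xFAD replicate 1, at 12 counts. Htr1d and Chrna2 reached at most 11 and 10 counts and Chrnb4 at most 10. Drd3, Drd4, Htr2b, Htr3b, Chrna6, Chrna9 and Chrna10 had 4 or fewer counts in each library, so that differences in them were not detectable at this depth. Among the tested members, exons of Adra1d, Chrm1, Chrm2, Chrnb2, Drd5 and Htr1b overlap those of another gene on the opposite strand, and their counts are uncertain to that extent.

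Several members varied between the WT libraries together with genes of particular cell groups. WT replicate 2 had the lowest Htr4 level, and it also had the lowest level of the dentate granule cell genes Prox1 (69.2, 43.7 and 76.9 CPM in WT and 95, 108 and 97.0 CPM in 5xFAD), Dsp and Trpc6. The 8 dentate markers summed to 481.58, 382.87 and 582.01 CPM in WT and to 664.47, 732.64 and 650.28 CPM in 5xFAD, and 0 of the 8 passed the threshold while 5 were higher at an unadjusted p under 0.05, beside 9.87% of all genes. Their part in the Htr4 value was not tested.

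WT replicate 2 also had the highest Drd2, Htr2c, Adra2a and Adra1b levels of all libraries. In it stood highest, too, Tac2, a neuropeptide gene of the medial habenula (7.56, 13.5 and 2.24 CPM in WT and 2.03, 3.25 and 2.64 CPM in 5xFAD), Dlx6 of GABAergic neurons (6.76, 10.5 and 3.84 CPM in WT and 3.97, 4.87 and 4.10 CPM in 5xFAD) and Th, the enzyme of catecholamine synthesis (1.11, 3.01 and 0.548 CPM in WT and 0.802, 0.224 and 1.10 CPM in 5xFAD). The summed level of the 13 interneuron markers was 1658, 1886 and 1453 CPM in WT and 1420, 1592 and 1284 CPM in 5xFAD. That of the 10 detected thalamus and habenula markers was 147, 162 and 133 CPM in WT and 125, 132 and 129 CPM in 5xFAD, and that of the 9 striatum markers 196, 205 and 190 CPM against 171, 193 and 158 CPM. None of these lists had a gene past the threshold, and at an unadjusted p under 0.05 there were 3 of 13 interneuron, 3 of 9 tested thalamus and habenula and 2 of 9 striatum markers, all lower, beside 9.03% of all genes lower at that level. Their part in the values of Drd2, Htr2c, Adra2a and Adra1b was not tested.

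**Figure D4:**
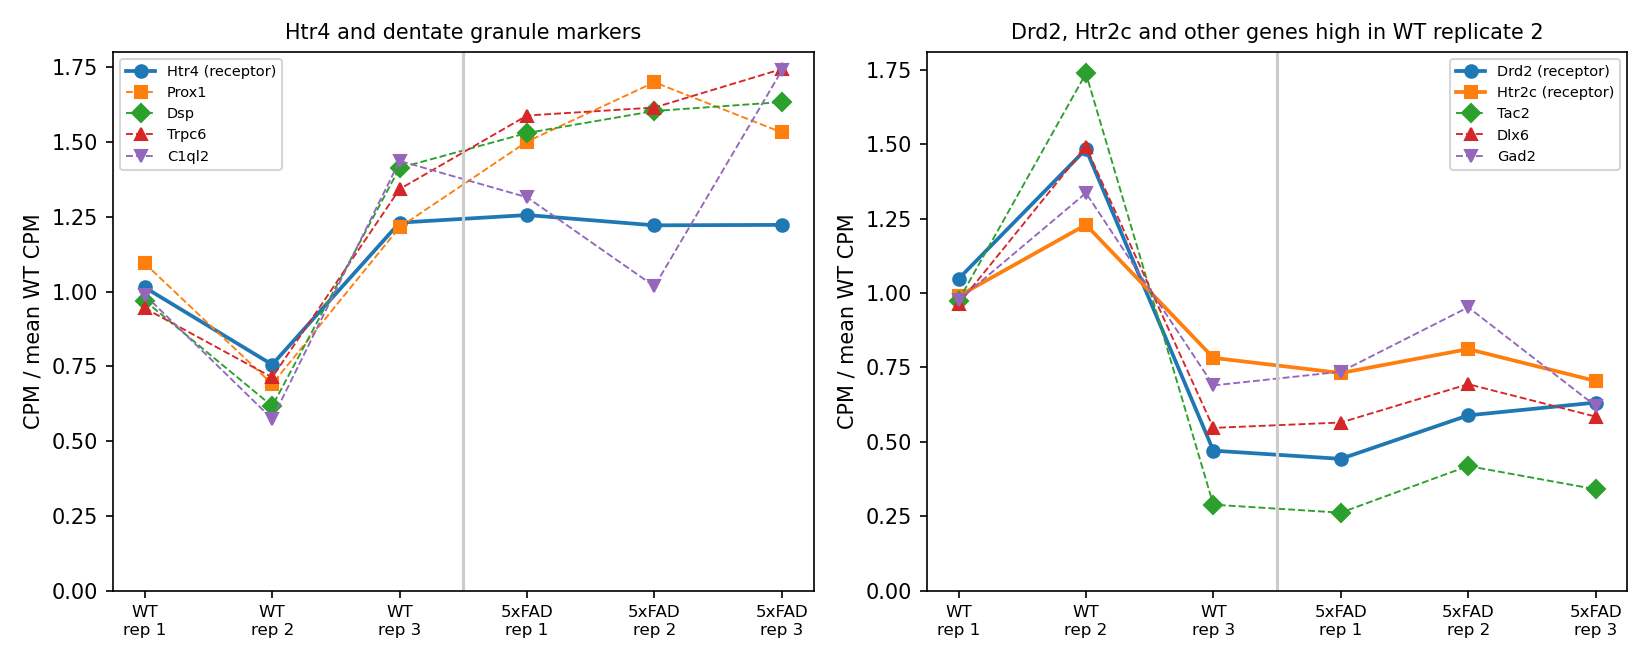
CPM of each gene divided by its mean over the WT libraries, by library, with solid lines for receptor genes and dashed lines for other genes (lines only join the points of 1 gene). Left, Htr4 and dentate granule cell genes were lowest in WT replicate 2, and right, Drd2, Htr2c, Tac2, Dlx6 and Gad2 were highest in WT replicate 2.

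Htr2c is also known from the choroid plexus epithelium, which lies against the hippocampus. The 12 choroid plexus markers summed to 139, 151 and 143 CPM in WT and 336, 498 and 218 CPM in 5xFAD, with Ttr, which encodes the thyroid hormone carrier transthyretin, at 79.7, 81.1 and 91.6 CPM in WT and 267, 413 and 160 CPM in 5xFAD. Of these markers 0 passed the threshold and 4 were higher at an unadjusted p under 0.05 (9.87% of all genes), and their sum was higher in each 5xFAD library. Their part in the Htr2c value was not tested. The vascular and mural markers summed to 517, 445 and 546 CPM in WT and 423, 421 and 439 CPM in 5xFAD, with 0 of 10 past the threshold and 4 lower at an unadjusted p under 0.05 (9.03% of all genes). Of the 10 pyramidal markers 2 were past it, Pou3f1 (65.0 to 69.2 CPM in WT and 43.1 to 49.5 CPM in 5xFAD) and Mpped1 (270 to 282 CPM in WT and 188 to 210 CPM in 5xFAD), both lower. At an unadjusted p under 0.05, 4 of the 10 were lower and 1 was higher, and their sums of 1410, 1375 and 1476 CPM in WT and 1479, 1701 and 1315 CPM in 5xFAD overlapped. With the GC-length term Pou3f1 was at -0.09 with overlapping groups. Of the 9 astrocyte markers 2 were past the threshold, Gfap and Aqp4, both higher. The hippocampal genes Neurod6 (269 to 545 CPM), Wfs1 (87 to 162 CPM) and Prox1 were present in all 6 libraries.

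The genes around these receptors were read from the same fit, and none of the 7 lists had a gene past the threshold in the quasi-likelihood test. DESeq2 called 1 of their genes, the exact test 3 and limma-voom 0, where over all genes they called 492, 572 and 102. At an unadjusted p under 0.05 in the quasi-likelihood test there were 14 of the 67 tested (20.9%), beside 18.9% of all genes. For the quasi-likelihood test the background of these lists is the same 0.761% of all genes past the threshold. Among proteins that bind nicotinic receptors, Lynx1, a toxin-like modulator, had 450, 460 and 439 CPM in WT and 384, 344 and 418 CPM in 5xFAD, with a log2 fold change of -0.24 ± 0.09 (SE) and an adjusted p of 0.239, which was -0.04 with the GC-length term, where the groups overlapped. Its relative Ly6h had 13.6, 15.9 and 14.7 CPM in WT and 10.3, 3.86 and 10.8 CPM in 5xFAD (fitted log2 ratio -0.80 ± 0.33, SE, adjusted p of 0.256). Without that term both lay below WT in every 5xFAD library, and the list of muscle-type subunits and chaperones had 2 of 4 tested genes lower at an unadjusted p under 0.05, with a median of -0.17.

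Of the acetylcholine genes, Ache, which encodes acetylcholinesterase, had 70.2, 88.3 and 57.7 CPM in WT and 53.1, 37.1 and 59.4 CPM in 5xFAD. The groups overlapped through 5xFAD replicate 3, and the log2 fold change was -0.53 ± 0.21 (SE) with an adjusted p of 0.245, or -0.24 with the GC-length term. Chat, the synthetic enzyme of cholinergic neurons, lay between 0 and 0.510 CPM in all libraries, and the choline transporter Slc5a7 between 0.868 and 2.64 CPM. Of the genes that make, carry and break down monoamines 10 were tested, 0 with an unadjusted p under 0.05 and with a median of 0.02, which became 4 and -0.28 with the GC-length term. Ddc, the decarboxylase of dopamine and serotonin synthesis, had the smallest p (5.78, 10.01 and 5.48 CPM in WT and 4.48, 5.32 and 5.04 CPM in 5xFAD, adjusted p of 0.290), and the transporters Slc6a4 and Slc18a2 were at or below 0.280 CPM in every library.

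Downstream of the receptors, 17 G protein genes were tested, of which 4 were lower and 1 higher at an unadjusted p under 0.05, beside 9.03% lower and 9.87% higher of all genes. Gnb4, a beta subunit, had 14.2, 15.4 and 17.1 CPM in WT and 10.5, 9.85 and 11.7 CPM in 5xFAD, without overlap (fitted log2 ratio -0.54 ± 0.13, SE, adjusted p of 0.138). Gnas, the alpha subunit that activates adenylyl cyclase, had a log2 fold change of -0.36 ± 0.13 (SE) with an adjusted p of 0.236, and -0.09 with the GC-length term. Of 12 tested cyclase and phospholipase genes 2 were lower and 2 higher at that level. The higher pair was Plcb2, with 4.71, 4.4 and 4.89 CPM in WT and 7.17, 7.61 and 6.50 CPM in 5xFAD (adjusted p of 0.153), and Adcy7, with 2.67, 3.01 and 3.38 CPM in WT and 5.00, 5.04 and 4.55 CPM in 5xFAD (adjusted p of 0.166). Both are known from blood and immune cells. Of the 9 tested microglia markers 6 passed the threshold, all higher in 5xFAD and among them Cx3cr1, P2ry12, Trem2, Cst7 and Itgax, and the 10 markers summed to 294.36 to 298.89 CPM in WT and 502.59 to 631.72 CPM in 5xFAD. The part of microglia in the values of Plcb2 and Adcy7 was not tested.

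Of the 17 tested receptor kinases, arrestins and adaptors, Grk4, a receptor kinase, was higher in every 5xFAD library (log2 fold change 0.64 ± 0.21, SE, adjusted p of 0.225) and Caly was lower in every one (-0.32 ± 0.12, SE, adjusted p of 0.244). The value of Caly was -0.06 with the GC-length term, where its groups overlapped. The 3 detected histamine receptor genes, the other monoamine receptors of the list, had no unadjusted p under 0.05. Hrh3, the presynaptic histamine receptor, had 1.29, 1.39 and 0.914 CPM in WT and 0.330, 0.896 and 0.813 CPM in 5xFAD (adjusted p of 0.294; log2 fold change -0.82, or -0.46 with the GC-length term), and Hrh1 ranged from 6.45 to 7.27 CPM in WT and from 5.53 to 6.10 CPM in 5xFAD.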

How the data were processed

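The authors depleted ribosomal RNA from hippocampal RNA, made libraries with a low-input kit and sequenced 150-base paired reads. Per the submitters' processing notes, cutadapt 1.9.3, HISAT2 2.0.4 (mm10), HTSeq 0.9.1 and edgeR 3.16.5 were used. The deposited values used here are the authors' raw read counts per gene, with no normalization. A further 6 columns, 1 per sample, hold values normalized by the authors and were not used. The sources used here give neither the annotation release nor the strand setting, and their accounts of the animals' sex differ.

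The WT libraries held 21440700 to 22132716 counts each and the 5xFAD libraries 18997677 to 23873280. Genes were filtered with filterByExpr (minimum count 10, 13937 kept), scaled by TMM and tested with edgeR 4.0.16 (quasi-likelihood, genotype only, two-sided) in R 4.3.3, with Benjamini-Hochberg adjustment over all genes tested. Adjusted p-values in the text come from this test unless another tool is named. Replicates are separate samples, which the sources do not tie to single mice, and p-values measure the spread among them. The GC-length term is a pair of natural splines with 4 degrees of freedom each, fitted in each library on GC content and longest transcript length (GENCODE M21, known for 96.8% of genes). CPM per kilobase divides by that length. Alternatives used DESeq2 1.42.0, limma 3.58.1, other scalings and filters, and left out each library. The scripts were tested on simulated data. Full values are given for the 12 members with the smallest p and the most abundant member per length of each receptor class, and for up to 2 genes of each other list unless more passed the threshold. Some items, among them 1 tested member, are not reported here by name and are left out of the figures, but they stay in the counts. Other members and genes that the text gives in full were picked after their values were seen. The members and lists were chosen with earlier results of these data known.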

Additional observations from a re-analysis of the deposited data

How the results depend on the processing

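The count of genes past the threshold, 106, was 69 with library totals, 492 with DESeq2, 572 with edgeR's exact test, 163 with the GC-length term and 12 to 3229 when 1 library was left out (12, 17 and 14 without WT replicates 1 to 3, and 20, 227 and 3229 without 5xFAD replicates 1 to 3). The count of receptor genes past it, 0, was 1 with DESeq2 and with the exact test (Adra1b) and 0 to 4 when 1 library was left out. The 4 came without 5xFAD replicate 3, in the fit where 3229 of all genes passed. They were Adra1b (adjusted p of 0.0365), Adra2a (0.0478), Adra2c (0.0333) and Chrnb2 (0.0492). So many genes passed in that fit that the 4 are not read as a result about the receptors. The cause was not tested. The count of members whose groups did not overlap, 11, was 11 to 18 when 1 library was left out and 21 for 5xFAD replicate 3 alone. In all these settings fewer samples make an overlap rarer for any gene. The share over all genes was not computed for them, so the rise is not a result about the members. Genes of the pathway lists past the threshold, 0, were 1 with DESeq2, 3 with the exact test and 0 to 20 when 1 library was left out. The sign of the log2 fold change turned under at least 1 setting for 14 of the 32 tested members. Among the genes given in full it turned for Adra1d (0.040 with the GC-length term, 0.034 with that term and the replicate block, 0.11 with 5xFAD replicate 3 alone), for Chrm1 (0.029, 0.030 and 0.011), and with 5xFAD replicate 3 alone for Chrna7 (-0.091) and Htr1a (-0.017). Others that turned were Adra2c (0.044), Adrb1 (0.27) and Drd1a (-0.096) with the GC-length term, and Htr3a (0.089) and Htr6 (0.086) with 5xFAD replicate 3 alone. Whether the replicate numbers pair the samples is not known. Deviations of same-numbered libraries from their group means correlated at -0.02, -0.01 and -0.02. The GC trend of the 5xFAD libraries could hide a shared effect, so these values cannot settle it. With the replicate block 20 genes and 0 members passed. The low-count filter left out 14 members, and 0 of the 46 passed without it.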

Other observations

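Some genes of the lists that are known from hippocampus or microglia had almost no counts in this table. Csf1r, the receptor for the microglial growth factor, had 1, 6 and 5 counts in WT and 7, 5 and 11 counts in 5xFAD, while Cx3cr1 lay between 56.7 and 98 CPM. Gnb5, a neuronal G protein beta subunit, had 0, 1 and 3 counts in WT and 4, 3 and 4 counts in 5xFAD. The cause of such counts was not tested.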
